A study of Mus musculus with 120 samples.

Results

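The cytosolic ribosomal protein genes were examined in the liver of male mice across 30 strains. A probe set was counted as a member when its only gene symbol began with Rpl or Rps and a digit, or was Rplp0, Rplp1, Rplp2 or Rpsa, with pseudogenes and the Rps6k kinases left out. This gave 106 probe sets of 50 genes, out of 45037 probe sets on the array. Of these genes, 22 encode proteins of the large subunit (42 probe sets) and 21 encode proteins of the small subunit (53 probe sets). The other 7 genes (11 probe sets) are relatives whose symbols also match: Rpl3l, Rpl7l1, Rpl22l1, Rpl39l, Rps4l, Rps27l and Rps19bp1, the last of which encodes a protein that binds Rps19 rather than a ribosomal protein. A further 110 probe sets list a member together with other genes and were not counted as members.

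The ribosome is the RNA and protein machine that translates mRNA, and its small subunit reads the message while its large subunit joins amino acids. Its proteins are needed in fixed proportion to one another, and in mammals most of their mRNAs begin with a run of C and T bases, the terminal oligopyrimidine tract, through which mTOR signalling sets how much of the mRNA is translated. Liver makes most plasma proteins and carries many ribosomes, and feeding and fasting change their number.

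Livers were taken from 10-week-old males after 4 h of fasting, and total RNA was hybridised to the Affymetrix Mouse Genome 430 2.0 array. The control strain was C57BL/6J (B6), and the donor strain was MSM, which goes back to wild mice of Japan. The other 28 strains were consomic, each having a B6 background in which a single chromosome, whole or in part, came from MSM, and were named for it (B6-Chr4MSM, B6-Chr13CMSM and so on up to X and Y). A C or T in the name stands for the centromeric or the telomeric portion, no strain carried chromosome 10, and B6-mtMSM had the mitochondrial DNA of MSM. Each strain had 2 males, untreated apart from the fast, and each male had 2 arrays, which were averaged. The labels do not give the boundaries of the C and T portions.

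The deposited values were on a log2 scale but differed extremely little between males. Differences are therefore given in thousandths of a log2 unit, from the mean of the 2 B6 males, and cannot be read as fold changes or compared in size between probe sets. Array medians lay between 7.4158 and 7.4168, and those of the MSM males lay -0.739 and -0.651 thousandths from the overall median, against -0.157 to 0.153 for the other males. Albumin (Alb), the main product of hepatocytes, stood at 14.80 in every male. A test was run for the 88 member probe sets (45 genes) that exceeded the median of all values, 7.42, in at least 2 of the 60 males. The 18 probe sets under it included the sole probe sets of Rpl3l, Rpl39l, Rpl12, Rpl14 and Rps16. All tests used limma with Benjamini-Hochberg adjustment over all 19429 tested probe sets, a call meaning an adjusted p under 0.05. The p-values rest on the spread between the 2 males of a strain, pooled over all 30 strains (30 residual degrees of freedom). They do not measure the spread of the 2 strains compared alone. The males of a strain may share litter or day, and the small number of arrays limits the precision of the p-values. In whole liver, fewer cells of a type and less RNA per cell cannot be told apart.

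The promoter sequences of the genes on which the results turn are shown first, because the start of the transcript is what ribosomal protein genes have in common. They are from RefSeq on GRCm38.p6, each running from 40 bases before the annotated start to 20 bases from it onwards, on the strand of the gene. Capitals mark a pyrimidine tract, defined here as a C followed by at least 4 bases that are each C or T, beginning no more than 10 bases from the start and searched on the gene's own strand only. It is marked from the qualifying C nearest to the start, so a run of C and T can reach further upstream than the capitals.
Rps6 (chr4:86857348-86857407, minus strand): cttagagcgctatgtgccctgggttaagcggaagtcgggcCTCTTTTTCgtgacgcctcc
Rps18 (chr17:33955646-33955705, minus strand): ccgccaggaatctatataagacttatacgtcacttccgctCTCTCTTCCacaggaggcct
Rps24 (chr14:24490638-24490697, plus strand): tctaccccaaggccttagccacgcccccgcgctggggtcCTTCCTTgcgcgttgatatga
Rps26 (chr10:128626487-128626546, minus strand): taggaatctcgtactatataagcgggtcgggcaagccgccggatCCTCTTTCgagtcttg
Rpl41 (chr10:128549149-128549208, minus strand): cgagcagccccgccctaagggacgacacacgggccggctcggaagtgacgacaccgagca
Rps3 (chr7:99483690-99483749, minus strand): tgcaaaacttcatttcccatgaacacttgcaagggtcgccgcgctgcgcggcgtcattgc
Rpsa (chr9:120127726-120127785, plus strand): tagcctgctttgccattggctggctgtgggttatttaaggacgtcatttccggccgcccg
Rpl7l1 (chr17:46782637-46782696, minus strand): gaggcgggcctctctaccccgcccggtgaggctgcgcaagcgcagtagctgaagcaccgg

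In these windows, a tract could be counted from exactly the annotated start in Rps6 and Rps18, where the run of C and T also reached upstream of it. The tract was found near the start of 27 of the 44 member genes with a promoter entry (61.4%), against 34.4% of 27025 genes. It could be counted from exactly the start in 8 of the 44 (18.2%), against 3.01% of all genes. A window without capitals says only that these letters were not met at this annotated start.

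The first comparison was of the parental strains. In MSM liver, 16 of the 88 member probe sets (18.2%) were called against B6, a share below the 23.4% of all tested probe sets. They split evenly: 8 were higher (13.4% of all probe sets were) and 8 lower (9.95% of all), and no gene was called in both directions. Probe sets with names ending in _x_at made up 38 of the 88 tested members and 9 of the 16 calls. Of all 1302 tested probe sets with such names, 25.8% were called. Whether they also detect related transcripts was not tested. By gene, 7 were called higher (Rpsa, Rps19bp1, Rpl41, Rps3, Rps28, Rps10 and Rps14) and 5 lower (Rpl7l1, Rps6, Rpl7, Rpl22 and Rps24). On the deposited scale, the median moderated t, the difference over its standard error, was -0.22 for the members and 0.52 for all tested probe sets. The large subunit had 2 higher and 4 lower calls among 37 probe sets and the small subunit 5 higher and 3 lower among 42. The split was not even outside the members. Of the 110 probe sets that list a member together with other genes, 100 passed the filter. Fitted together with the tested probe sets, 1 of them was called higher and 20 lower in MSM (21%).

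**Figure D1:**
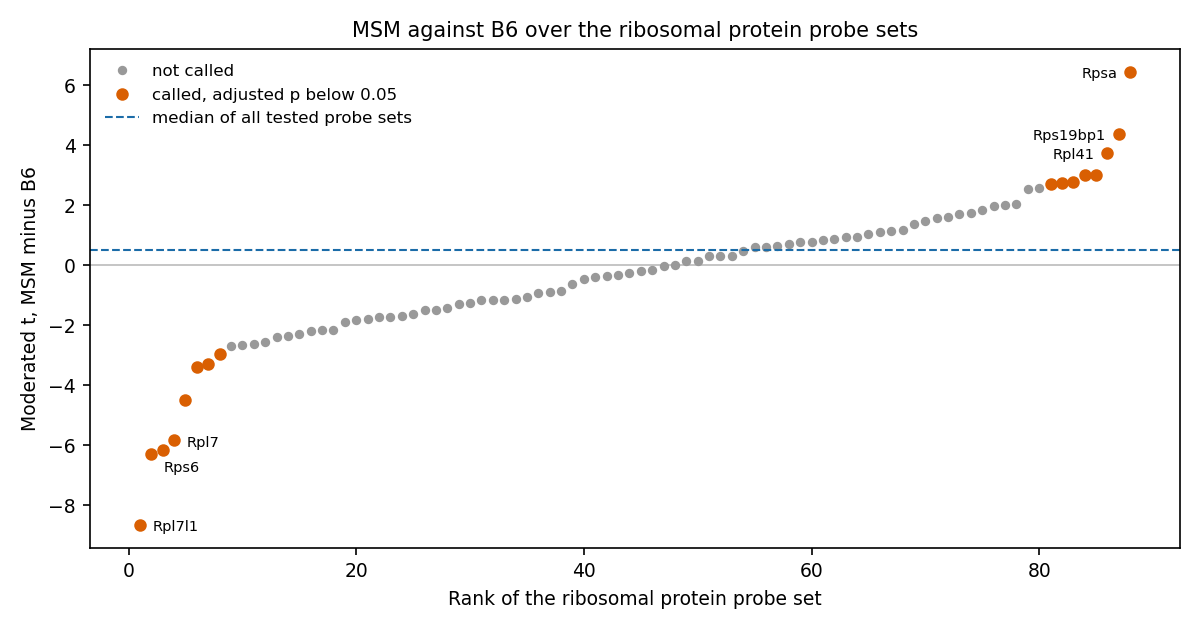
The 88 tested ribosomal protein probe sets are ranked along the horizontal axis by the moderated t of MSM minus B6, shown on the vertical axis, with called probe sets in orange. The 8 lower calls stand at the left and the 8 higher calls at the right, and the dashed line is the median of all tested probe sets, 0.52.

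The even split among the members depended on how the arrays were scaled. Quantile normalization gave 25 higher and 4 lower calls, and centring each array on its median gave 74 higher and 2 lower. Over all tested probe sets, the calls in MSM rose from 4542 to 16458 and 16380, so most probe sets were called under both. The share of higher calls among all called probe sets moved from 57.4% to 96.6% and 95.2%, and the median t of all probe sets from 0.52 to 5.92 and 9.94. That of the members moved from -0.22 to 0 and 12.2, so that with centred arrays the members, like most probe sets, were mostly higher in MSM. The sign itself turned under one of these scalings, or both, for Rps6, Rpl22, the 3 probe sets of Rpl7, 1 of Rps24 and 1 of Rpl41. After quantile normalization the difference was 0 for 5 of the 16 calls, those of Rpsa and Rps28, 2 of Rpl7 and 1 of Rps24, and 4 of the 16 were called in the same direction. Another 2 were called in the other direction, as higher in MSM. They were Rpl22 at 3.54 (limma adjusted p = 2.46e-06) and Rpl7 1426163_x_at at 1.52 (0.00381). Against the mean of the 28 consomic strains in place of B6, 35 probe sets (39.8%, against 41.8% of all) were called, with 7 higher (25.4% of all) and 28 lower (16.5% of all). Only 7 of the 16 calls against B6 held whichever of the 4 parental males was left out: those of Rpl7l1, Rps6, Rpsa, Rpl22 and Rps19bp1 and 2 of Rpl7. The 2 MSM males lay beyond both B6 males in 64 of the 88 probe sets (72.7%, against 74.3% of all), above in 25 (45.3% of all) and below in 39 (29% of all).

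Among the proteins of the small subunit, Rps6 was lower in MSM on the deposited scale by its only tested probe set, 1416142_at. It is the subunit's phosphorylated protein, the classical target of the S6 kinases downstream of mTOR. The B6 males stood at 0.0888 and -0.0888 thousandths from their mean, and the MSM males at -2.06 and -2.18. The groups were far apart, and the difference was -2.12 ± 0.338 (SE from the pooled spread, n = 2 males against 2, limma adjusted p = 1.83e-05). After quantile normalization it was 0.468 and not called (limma adjusted p = 0.435). The gene's other probe set, 1453466_at, was under the filter and did not show the difference. By it the MSM males stood at 0.0131 and -0.00905 and the B6 males at 0.00616 and -0.00616.

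Rpsa, the laminin receptor precursor that also sits in the small subunit, went the other way. Its B6 males had -0.0279 and 0.0279, and its MSM males 0.273 and 0.280, the highest of all 60 males. The difference was 0.277 ± 0.0429 (limma adjusted p = 1.21e-05). Rps3, a protein of the mRNA entry channel with a second role in DNA repair, had MSM males at 0.100 and 0.114 against B6 males at -0.0243 and 0.0243. That difference of 0.107 ± 0.0357 (limma adjusted p = 0.0273) did not pass when B6 male 1 or any MSM male was left out. By its other tested probe set, 1447563_at, Rps3 differed by 0.0404 ± 0.0352 and was not called (limma adjusted p = 0.431). Rps24, which is mutated in some cases of Diamond-Blackfan anaemia, had MSM males at -1.44 and -1.62 by probe set 1453362_x_at, with B6 males at -0.118 and 0.118. The difference of -1.53 ± 0.464 (limma adjusted p = 0.0156) stood beside one of -0.643 ± 0.217 (limma adjusted p = 0.0294) by probe set 1436064_x_at, and both calls were lost whichever parental male was left out. Rps28, Rps10 and Rps14 were higher by 0.0302, 0.0308 and 0.0313, with adjusted p-values of 0.0276, 0.0419 and 0.047 in limma. The calls of Rps10 and Rps14 were lost whichever parental male was left out, and that of Rps28 held only when B6 male 2 was the one left out.

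For the large-subunit protein Rpl7, all 3 tested probe sets were called lower on the deposited scale, while with arrays centred all 3 differences were positive. By probe set 1426162_a_at the B6 males had 0.0248 and -0.0248, and the MSM males -0.389 and -0.422, and the groups did not overlap. The 3 differences were -0.406 ± 0.0659 (limma adjusted p = 2.36e-05), -0.226 ± 0.0387 (5.15e-05) and -0.0781 ± 0.023 (0.0125). Of the 20 member genes with several tested probe sets, 9 had a call and only Rpl7 was called by every one. Rpl22, the large-subunit protein whose loss affects T-cell development, had MSM males at -0.478 and -0.621 and B6 males at 0.0524 and -0.0524. It was lower on the deposited scale by -0.549 ± 0.122 (limma adjusted p = 0.00121) by 1 of its probe sets. That probe set was called higher after quantile normalization. Rpl41, the smallest ribosomal protein, was higher by 0.0959 ± 0.0257 (limma adjusted p = 0.0063) and 0.487 ± 0.178 (0.0453) by 2 probe sets. The former did not pass when male 2 of either parent was left out, and the latter when any parental male was. Rplp0 and Rplp2, proteins of the stalk that recruits translation factors, were not called, with 0.0231 ± 0.0145 (limma adjusted p = 0.259) and 0.664 ± 0.257 (0.0592).

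Of the relatives, Rpl7l1, a nucleolar paralog of Rpl7 that acts in ribosome assembly, had the smallest adjusted p of any member. By probe set 1439780_at the B6 males stood at 0.0173 and -0.0173 and the MSM males at -1.25 and -1.12. The difference was -1.18 ± 0.137 (limma adjusted p = 7.5e-08), and the groups were widely separated. Its other 2 probe sets did not show it: 1426386_at differed by 0.0215 ± 0.0655 (limma adjusted p = 0.842) and 1452049_at by 0.253 ± 0.128 (0.151). Rps19bp1 was higher in MSM by 0.256 ± 0.0584 (limma adjusted p = 0.00156), with MSM males at 0.261 and 0.250 and B6 males at 0.0229 and -0.0229. Rpl22l1, the paralog of Rpl22, differed by -0.321 ± 0.998 (limma adjusted p = 0.845) and was not called. Rps4l, a relative of the X-linked Rps4x, had MSM males at -6.64 and -7.41 but B6 males at 1.80 and -1.80, and its difference of -7.02 ± 3.73 was not called (limma adjusted p = 0.174). The 3 probe sets of Rps27l, a p53-responsive relative of Rps27, differed by -0.0529, -0.0249 and -0.032 and none was called.

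The consomic strains show whether a difference appears when 1 MSM chromosome is present in a B6 background. Over the 118 pairs of a tested member and a strain that carries all or part of its chromosome from MSM, 3 were called against B6, where 5.55% of all such pairs were. Against the strains without that chromosome from MSM, B6 included and MSM excluded, 6 were called (10.3% of all such pairs). Both references called Rpl7l1 in B6-Chr17MSM, Rps6 in B6-Chr4MSM and Rps3 in B6-Chr7MSM. These are the chromosomes on which the genes lie.

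Rpl7l1 in B6-Chr17MSM had both males at -1.20 by probe set 1439780_at. The difference from B6 was -1.20 ± 0.137 (limma adjusted p = 1.15e-06). The 4 lowest of the 60 males were the 2 of MSM and the 2 of B6-Chr17MSM, and the fifth lowest stood at -0.299. MSM and B6-Chr17MSM differed by 0.0143 ± 0.137 (limma adjusted p = 0.952). The same strain stood 0.0307 and 0.115 from B6 by the other 2 probe sets of the gene, so the pattern was met in 1 of 3, the dimmest. After quantile normalization the MSM difference was -0.224 and not called, while that of B6-Chr17MSM, -1.04 (limma adjusted p = 0.000264), was. Over the 60 males, the probe sets most like 1439780_at were 2 of H2-K1 (r = 0.882 and 0.878) and 3 of Ppp2r1a (r = 0.870, 0.869 and 0.868). H2-K1 and Ppp2r1a lie on chromosome 17 too, and the correlation is a description over males that share these strains. The match of the array's probes to MSM transcripts was not tested.

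Rps6 in B6-Chr4MSM had males at -2.15 and -1.43, and the 4 lowest of the 60 males were these and the MSM males. The fifth lowest was at -0.332, so the groups did not overlap. The difference from B6 was -1.79 ± 0.338 (limma adjusted p = 0.00368) and from the strains without chromosome 4 of MSM -2.08 ± 0.243 (8.75e-07). The former was lost without B6 male 1 or B6-Chr4MSM male 1, where the limma adjusted p reached 0.225, and after quantile normalization (-1.02, limma adjusted p = 0.504). MSM differed from B6-Chr4MSM by -0.331 ± 0.338 (limma adjusted p = 0.54). The Rps6 transcript is among those with a tract at the annotated start. By the gene's other probe set, 1453466_at, none of the MSM and B6-Chr4MSM males was among the 4 lowest.

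Rps3 gave different readings by its probe sets. Probe set 1447563_at, which was tested, was not called in MSM or in any chromosome 7 strain. Its lowest male was of B6-Chr9MSM and its highest of B6-mtMSM. By probe set 1435151_a_at the males of B6-Chr7MSM had 0.0965 and 0.179, those of B6-Chr7CMSM 0.0555 and 0.0611, and those of B6-Chr7TMSM 0.0879 and 0.121. The strain B6-Chr7MSM was higher than B6 by 0.138 ± 0.0357 (limma adjusted p = 0.0448). That call was lost without B6-Chr7MSM male 2 or either B6 male, and under both other scalings (limma adjusted p = 0.972 and 0.176). By probe set 1455600_at, which was under the filter on dim probe sets and was looked at after its values were seen, the 8 lowest of the 60 males were those of MSM and of the 3 chromosome 7 strains. The MSM males had -0.750 and -0.759, those of B6-Chr7MSM -0.586 and -0.454, those of B6-Chr7CMSM -0.551 and -0.497, and those of B6-Chr7TMSM -0.453 and -0.748. The lowest of the other 52 males was at -0.178, so these did not overlap. Fitted without the filter, where 17.9% of all probe sets were called in MSM, the MSM difference was -0.754 ± 0.147 (limma adjusted p = 0.000381). Against the strains without chromosome 7 of MSM the differences were -0.601, -0.605 and -0.681, with adjusted p-values of 0.00108, 0.00129 and 0.000346 in limma. Against B6 alone none of the 3 was called, with adjusted p-values of 0.0974, 0.240 and 0.116. The centromeric and telomeric strains were thus both low by this probe set.

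**Figure D2:**
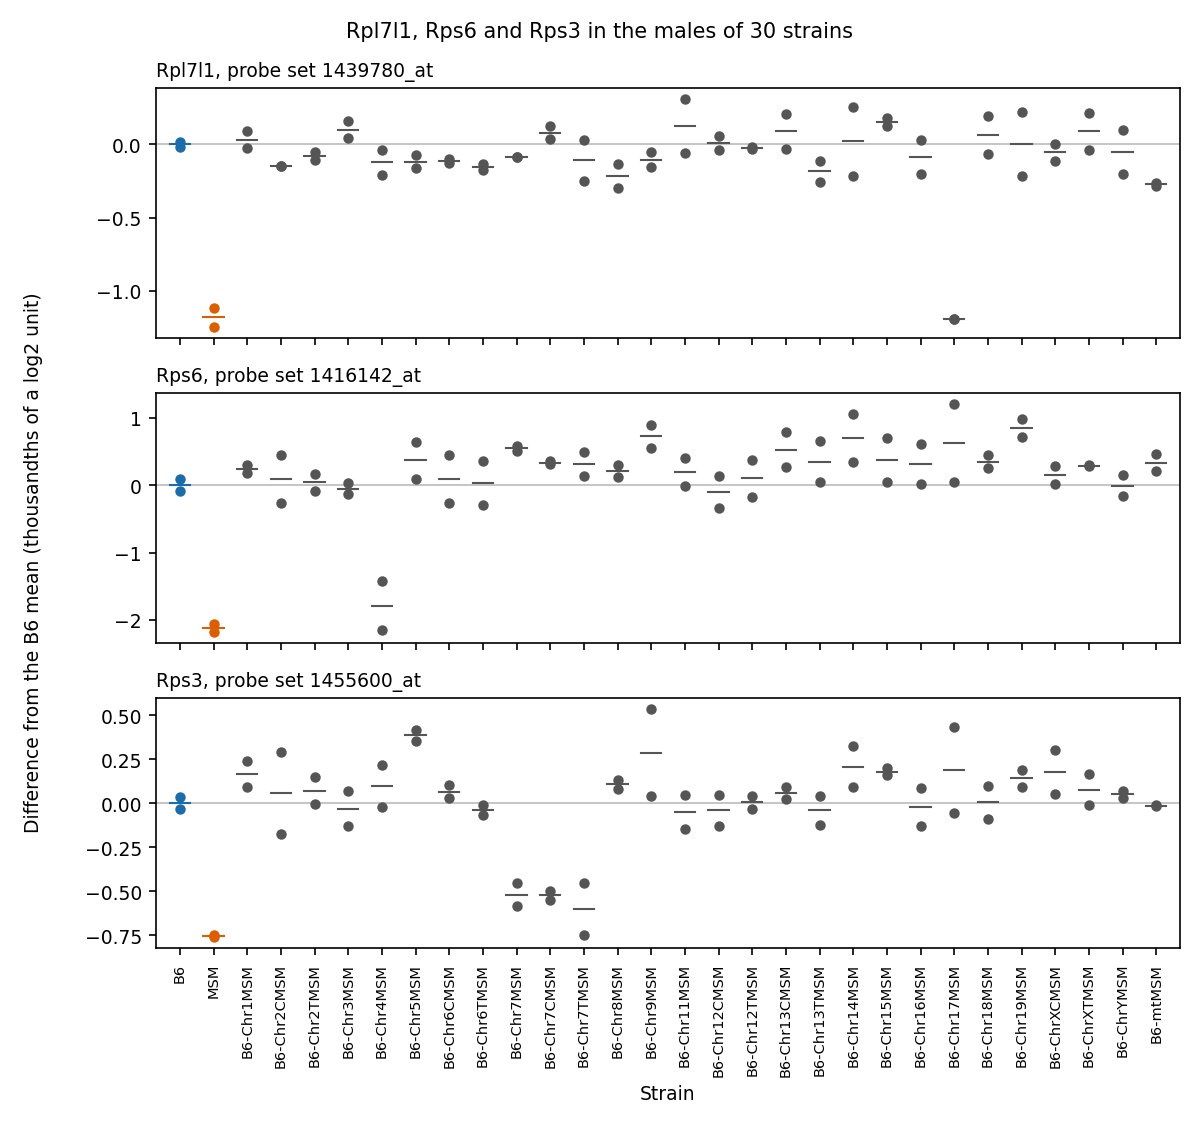
Each dot is a male and each short bar the mean of the 2 males of a strain, in thousandths of a log2 unit from the B6 mean on the vertical axis, for probe sets of Rpl7l1, Rps6 and Rps3 (B6 blue, MSM orange, consomic strains grey). The low strains beside MSM are B6-Chr17MSM for Rpl7l1 (-1.20), B6-Chr4MSM for Rps6 (-1.79) and the 3 chromosome 7 strains for Rps3 probe set 1455600_at (-0.453 at the highest of their males).

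A further member under the filter had this form. Rpl14, a large-subunit protein encoded on chromosome 9, had MSM males at -0.353 and -0.311 by its only probe set and B6-Chr9MSM males at -0.332 and -0.321. The other males, B6 included, stood between -0.0412 and 0.243, so the 4 were the lowest without overlap. In the fit without the filter the differences from B6 were -0.332 ± 0.0565 in MSM (limma adjusted p = 6.27e-05) and -0.327 ± 0.0565 in B6-Chr9MSM (0.00174). Of the 18 members under the filter, 3 were called in MSM in that fit: Rpl14 and Rps3 lower, and Rps9 higher by 0.321 ± 0.102 (limma adjusted p = 0.0271). Rpl14 and Rps9 were picked out after their values were seen.

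Other calls on the substituted chromosome came from 1 reference only. Against the strains without the chromosome from MSM, Rpl10a (-0.118, limma adjusted p = 0.0323) and Rps18 (-0.371, 0.0192) were lower in B6-Chr17MSM and Rpsa was higher in B6-Chr9MSM (0.111, 0.0356). All 3 calls, and that of Rps3 probe set 1435151_a_at, were lost when 3 males that stand apart over the members as a whole, described further on, were left out. For Rps19bp1 on chromosome 15, the males of B6-Chr15MSM had 0.251 and 0.246, close to the MSM males, and the difference from B6 was 0.248 ± 0.0584 (limma adjusted p = 0.0566). Without those 3 males it passed. Over the centromeric and telomeric strains of the same chromosome, none of 25 member tests was called by limma, 2 had an unadjusted p under 0.05, and 3.35% of all such tests were called.

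Several parental differences were not matched by the strain with the gene's own chromosome. Of the 16 MSM calls, 14 were of genes with such a strain, and the other 2 (Rpl41) were of chromosome 10. In a comparison chosen after the values were seen, MSM differed from the strain or strains of the gene's own chromosome in 8 of the 14. All 3 probe sets of Rpl7 were lower in MSM than in B6-Chr1MSM, by -0.325 (limma adjusted p = 0.000435), -0.150 (0.00469) and -0.0615 (0.0485), in a comparison that called 24.5% of all probe sets. Rpl22 was lower than in B6-Chr4MSM by -0.452 (limma adjusted p = 0.00785, 20.2% of all called), and Rps24 than in B6-Chr14MSM by -0.649 and -1.35 (0.0243 and 0.0285, 28.9% of all called). Rpsa was higher than in B6-Chr9MSM by 0.116 (limma adjusted p = 0.0339, 37.1% of all called) and Rps28 than in B6-Chr17MSM by 0.0282 (0.0376, 25.5% of all called). For Rpl7 by 1426162_a_at, the 56 consomic males ranged from -0.214 to 0.173 with a median of -0.0299, none as low as the MSM males. For Rpsa they ranged from -0.0317 to 0.226 with a median of 0.0483, none as high. No consomic male therefore reached the MSM level of either gene on the deposited scale, whereas after quantile normalization the MSM difference from B6 was 0 for both of these probe sets. In the other 6 of the 14 a difference was not called: those of Rps6 and Rpl7l1, of Rps10 against B6-Chr17MSM (0.0228), of Rps14 against B6-Chr18MSM (0.0079, 27.7% of all called), of Rps19bp1 against B6-Chr15MSM (0.00728, 28.7% of all called), and of Rps3 against the 3 chromosome 7 strains (27.8%, 25.2% and 24.6% of all called).

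**Figure D3:**
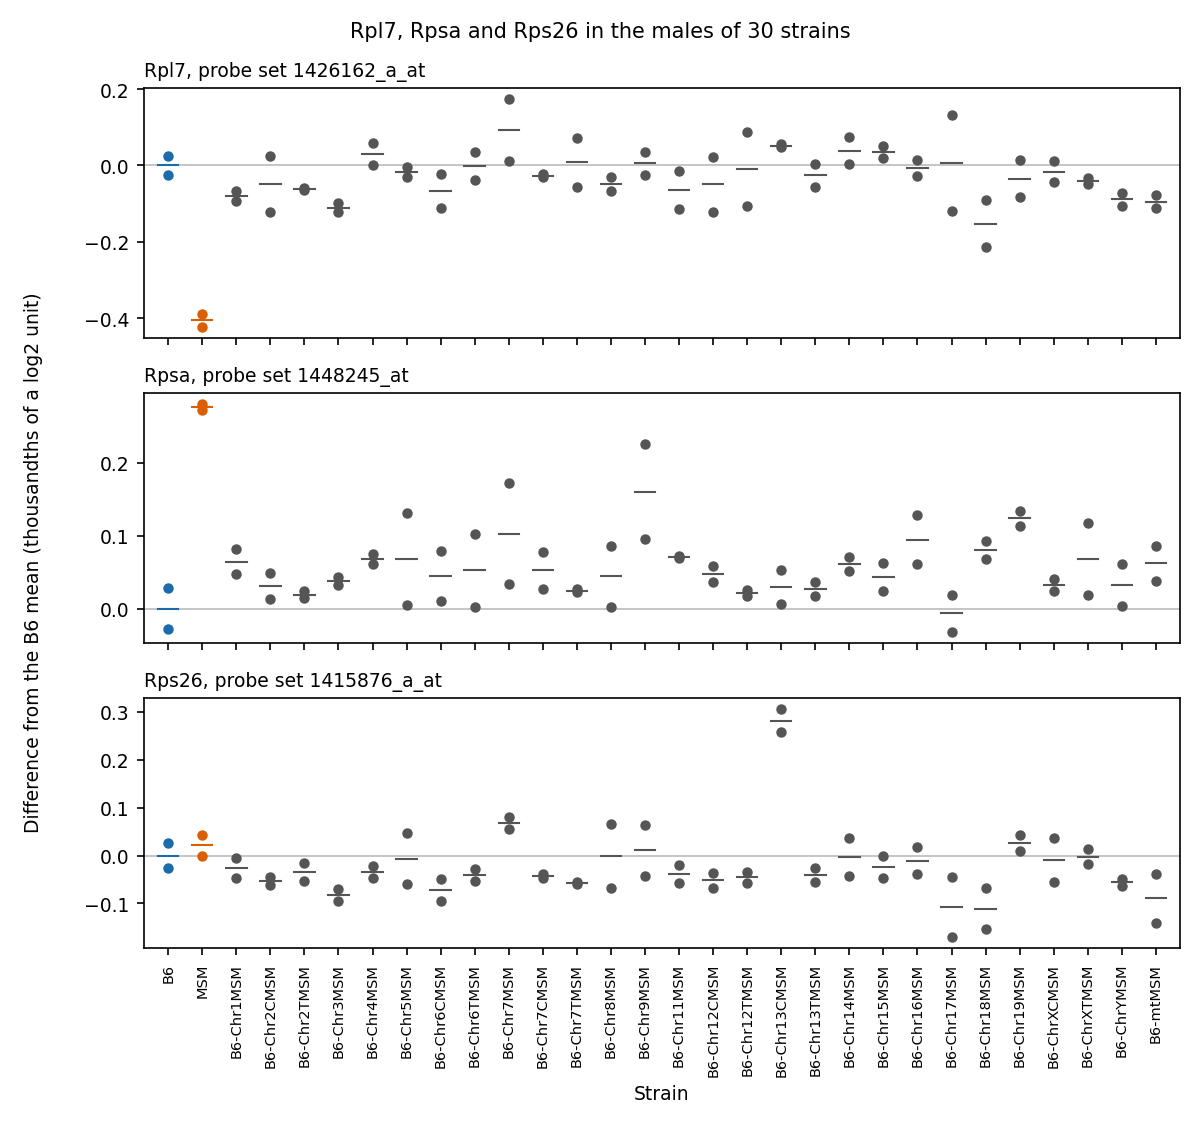
Dots are males and short bars are means of the 2 males of a strain, in thousandths of a log2 unit from the B6 mean on the vertical axis, for Rpl7, Rpsa and Rps26 (B6 blue, MSM orange, consomic strains grey). The MSM males are lowest for Rpl7 (-0.389 and -0.422) and highest for Rpsa (0.273 and 0.280), while for Rps26 the 2 B6-Chr13CMSM males (0.305 and 0.257) stand above all others.

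Away from the substituted chromosome, 3 pairs were called against B6 (0.109% of all such pairs) and 6 against the strains without the chromosome (0.296% of all). The former count was unstable, at 10 after quantile normalization or with the male as a random block and 106 with arrays centred, and it ran from 0 (without B6 male 1) to 30 (without B6-Chr9MSM male 2) with 1 male left out. The clearest were Rps26 and Rpl41 in B6-Chr13CMSM, both of them genes of chromosome 10. Rps26, a small-subunit protein near the mRNA exit channel, had B6-Chr13CMSM males at 0.305 and 0.257. The next highest male of the 60, of B6-Chr7MSM, was at 0.0806, and the B6-Chr13TMSM males were at -0.0562 and -0.0252. The difference from B6 was 0.281 ± 0.0436 (limma adjusted p = 0.000794) in a strain in which 0.0978% of all probe sets were called. From the strains without any of chromosome 13 of MSM it was 0.314 ± 0.0314 (limma adjusted p = 1.17e-07), where 0.221% of all were called, and this held without either B6-Chr13CMSM male (at most 0.000777).

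Rpl41 by probe set 1422623_x_at had B6-Chr13CMSM males at 0.994 and 1.06 and B6-Chr13TMSM males at 0.202 and 0.013. Here the separation was smaller, as B6-Chr9MSM male 1 reached 0.926. The difference from the strains without any of chromosome 13 of MSM was 0.800 ± 0.128 (limma adjusted p = 0.000545), and it was lost without either B6-Chr13CMSM male (0.0682 and 0.115). The C strain exceeded the T strain by 0.322 ± 0.0436 for Rps26 (limma adjusted p = 6.1e-05) and by 0.920 ± 0.178 for Rpl41 (0.00859), where 0.206% of all probe sets were called. In MSM, Rps26 differed from B6 by only 0.0210 ± 0.0436 (limma adjusted p = 0.763).

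Rpl41 and Rps26 are close neighbours. In the order of protein-coding gene starts in RefSeq, Rpl41 is followed by Pa2g4, which encodes a growth regulator that binds ribosomes, by Erbb3, a receptor tyrosine kinase gene, and then by Rps26. After the 2 members' values were seen, the whole run of 4 genes was looked up. All 4 were higher in B6-Chr13CMSM: 6 of their 9 tested probe sets were called against the strains without any of chromosome 13 of MSM, and in each of the 9 both B6-Chr13CMSM males were among the 4 highest of 60. Pa2g4 had 3 calls, of 0.995 ± 0.110 (limma adjusted p = 8.31e-07), 0.218 ± 0.0301 (5.87e-05) and 2.56 ± 0.532 (0.0200). Erbb3 had 1, of 2.10 ± 0.406 (limma adjusted p = 0.00823). Against B6, Erbb3 (1.49) and the last of these Pa2g4 probe sets (3.42, limma adjusted p = 0.0578) were not called. In MSM, Erbb3 was lower than in B6 (-1.87, limma adjusted p = 0.0149). These 3 probe sets of Pa2g4 were not called in MSM (0.0671, 0.0388 and -1.42), so MSM did not share the pattern in these 2 genes. With arrays centred on their medians all 9 differences stayed positive and 6 were called, while after quantile normalization only 1, of Pa2g4 (0.909, limma adjusted p = 5.88e-05), was called, Rps26 differed by 0 and the 3 of Rpl41 were negative.

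On either side the pattern stopped. Of the 10 protein-coding genes before Rpl41 and the 10 after Rps26, 17 had a tested probe set, and none of their 26 probe sets was called. The nearest, Zc3h10 before Rpl41 and Ikzf4 after Rps26, had differences of -0.00642 (limma adjusted p = 0.986) and, by 2 probe sets, 0.128 (0.424) and -0.0103 (0.975). Of the 951 tested probe sets on chromosome 10, the 6 of this run were the only ones called in B6-Chr13CMSM (0.631%). They were 6 of the 11 calls outside chromosome 13 in that strain. The labels describe no change to chromosome 10 in B6-Chr13CMSM, and the state of its DNA was not tested.

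**Figure D4:**
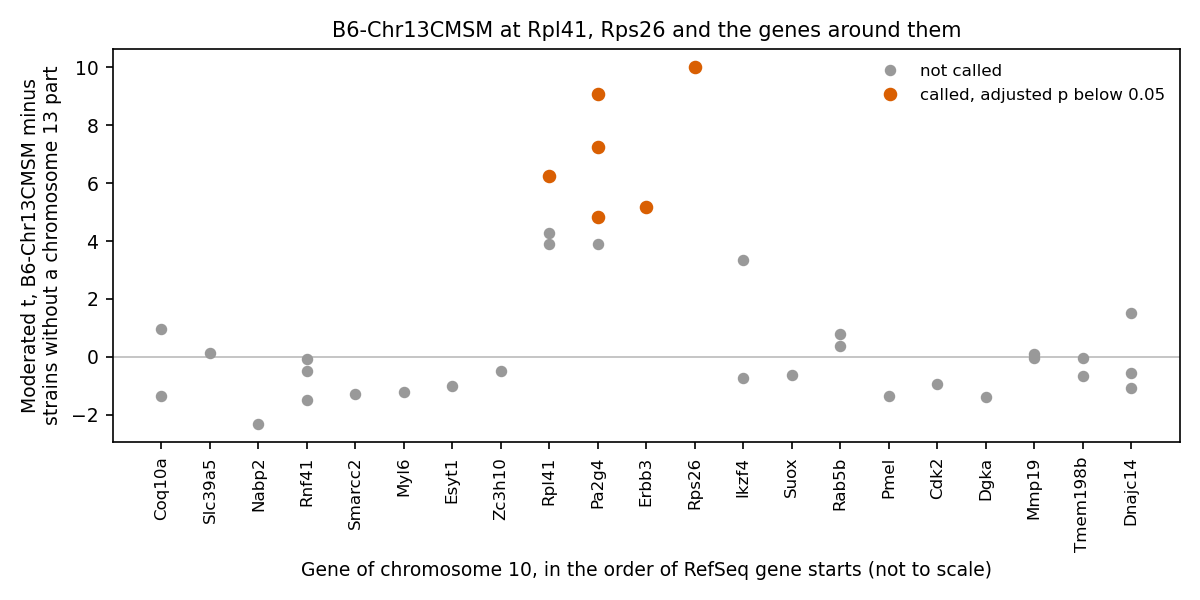
Genes of chromosome 10 are set along the horizontal axis in RefSeq order, not to scale, and the vertical axis is the moderated t of B6-Chr13CMSM minus the strains without any MSM part of chromosome 13, 1 dot for each tested probe set. The 6 called probe sets, in orange, all belong to Rpl41, Pa2g4, Erbb3 and Rps26, and none of the 26 probe sets of the genes on either side is called.

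The other calls away from the substituted chromosome were lost when 1 male, or the 3 males that stand apart, were left out. In B6-Chr7MSM, Rps19bp1 (0.176, limma adjusted p = 0.0190), Rpl10a (0.105, 0.0427) and Rps27 (0.045, 0.0405) were higher than in the strains without chromosome 7 of MSM, and all were lost without male 2 (adjusted p up to 0.448, 0.583 and 0.530). Without those 3 males, male 2 among them, the differences kept their sign at 0.137, 0.0741 and 0.0338 (limma adjusted p = 0.284, 0.438 and 0.509). For Rps19bp1 against B6 in that strain, the difference was 0.261 (limma adjusted p = 0.0180) with all males and 0.221 ± 0.0606 (0.111) without those 3. In B6-Chr9MSM, Rpl22l1 was higher by 2.51 ± 0.718 (limma adjusted p = 0.0392). Its males there were at 3.90 and 0.901, and without male 1 the call was lost (adjusted p = 0.999). Without the 3 males, male 1 among them, the difference was 0.998 ± 0.826.

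Over all 30 strains, 8 of the 88 member probe sets (9.09%) varied more between strains than between males by the limma F test, against 16.2% of all probe sets. The number depended on the setting: it was 28 after quantile normalization, 76 with arrays centred and 25 with the male as a random block, and from 4 (without either MSM male) to 18 (without B6-Chr9MSM male 2) with 1 male left out. The share over all probe sets under these other settings is not given here, so the changes cannot be read as particular to the members. On the deposited scale the 8 were those of Rpl7l1 (limma adjusted p = 2.72e-07), Rps6 (2.53e-05), Rps26 (0.00032), Rpsa (0.013), Rpl41 (0.0133), Rps19bp1 (0.0399) and 2 of Rpl7. The F calls of Rpl7l1, Rps6 and Rps26 held without any 1 of the 60 males. Those of Rpl7 and Rpsa were lost without either MSM male and that of Rpl41 without either B6-Chr13CMSM male. For the median member, strain took 9.92% of the variance, the male within a strain 24.4% and the array within a male 63.2%, against 11.3%, 23.4% and 59.6% for all probe sets. Strain took 76.7% for Rpl7l1 probe set 1439780_at, 60.9% for Rps6, 52.1% for Rps26 and 45.1% for Rpsa.

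The members moved together from male to male. Of the 88 tested, 38 were _x_at probe sets, and the correlations are not given here without them. The part of any shared detection of related transcripts in the correlations was not tested. Over the 60 males the median correlation was 0.709 for 80 pairs of probe sets of the same member gene, 0.339 for 3748 pairs of different member genes, and -0.012 for a member with any other probe set. These points share arrays and scaling, so the values are a description. The same was seen between the 2 males within a strain, where the median was 0.427 for different member genes and -0.006 for a member with other probe sets. Rps19, a small-subunit protein needed for the subunit's maturation, had the highest mean correlation with the other members (0.520). Probe sets 1421837_at of Rps18 (-0.241) and 1447563_at of Rps3 (-0.104) had the lowest, although other probe sets of these genes followed the rest. The median of this mean was 0.378 for 48 probe sets of genes with a pyrimidine tract near the start and 0.330 for 28 probe sets of genes without one.

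Part of this rested on 3 males. Each probe set was scaled to a mean of 0 and an SD of 1 over the 60 males and the 88 scaled values were averaged in each male. B6-Chr17MSM male 1 had the lowest mean, -2.0 SD units, with male 2 of the strain at 0.318. In 41 of the 88 member probe sets (46.6%) no other male was lower, against 2.75% of all probe sets. B6-Chr7MSM male 2 had the highest mean, 1.70, with male 1 at 0.662, and was the highest male in 31 members (35.2%, against 4.71% of all). B6-Chr9MSM male 1 reached 1.55, with male 2 at -0.176, and was the highest in 25 (28.4%, against 11.9% of all). Both arrays of each of these males stood apart in the same way, at -1.63 and -1.68, 1.58 and 1.27, and 1.34 and 1.27. The MSM males were at -0.516 and -0.768 and the B6 males at -0.762 and -0.0698, so the parental strains overlapped.

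**Figure D5:**
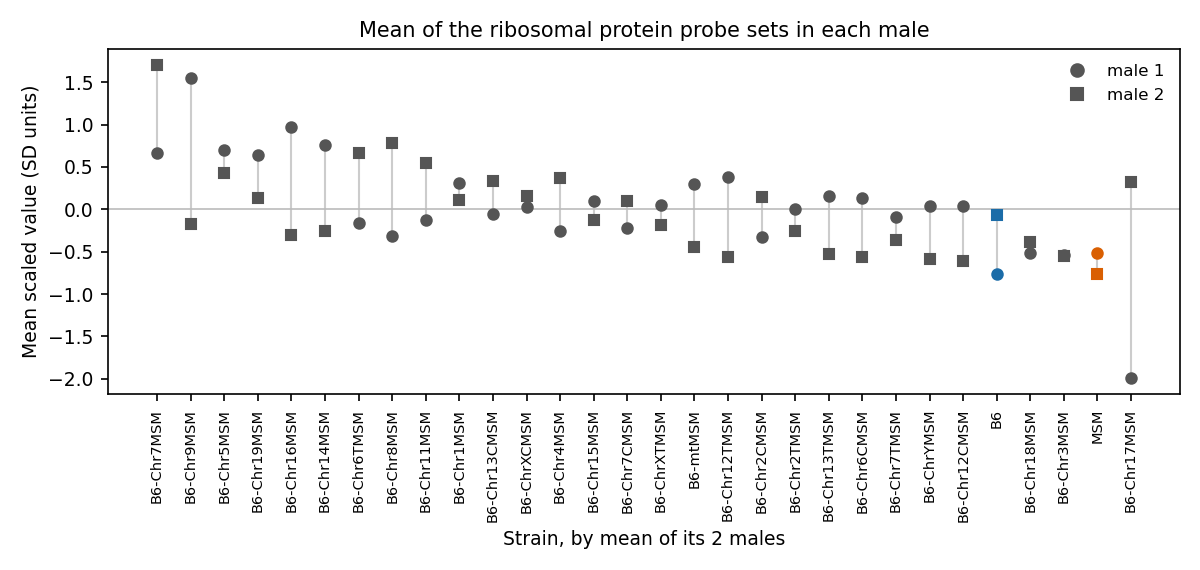
The vertical axis is the mean of the 88 scaled ribosomal protein probe sets in each male, in SD units, and strains are ordered by the mean of their 2 males, male 1 as a circle and male 2 as a square (B6 blue, MSM orange, consomic strains grey). B6-Chr17MSM male 1 (-2.0), B6-Chr7MSM male 2 (1.70) and B6-Chr9MSM male 1 (1.55) lie farthest out. The other male lies far away in B6-Chr17MSM (0.318) and B6-Chr9MSM (-0.176), while both males of B6-Chr7MSM are high (0.662 for male 1).

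Without these 3 males, the median correlation of different member genes fell to 0.226, and that of the same gene to 0.607, against -0.010 for a member with other probe sets. Between males of the remaining 27 strains the median for different member genes was 0.320. The gap between the 2 males of a strain in the mean scaled value had a median of 0.622 and reached 2.31, and the means of strains spanned 2.02. The arrays of a male differed from each other by a median of 0.290. Leaving these males out, chosen after the data were seen, raised the MSM calls from 16 to 23 (10 higher and 13 lower), with all 16 among them, and the strain effects from 8 to 12, with all 8 among them. Of the calls described above, those of Rpl7l1 in B6-Chr17MSM, Rps6 in B6-Chr4MSM, and Rps26 and Rpl41 in B6-Chr13CMSM held without them. Calls over all probe sets without the 3 males are not given here, so the rises to 23 and 12 cannot be read as particular to the members.

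Other gene groups stood apart in these 3 males too. Translation factors with pyrimidine-tract mRNAs, such as Eef1a1 and Eef2, had ranks of 2, 60 and 59 from the lowest of the 60 males in B6-Chr17MSM male 1, B6-Chr7MSM male 2 and B6-Chr9MSM male 1, in the mean of 28 scaled probe sets. Genes of ribosome biogenesis, such as Ncl and Fbl, had ranks of 1, 60 and 59 in the same males over 45 probe sets. Mitochondrial ribosomal proteins were lowest in B6-Chr17MSM male 1 (-1.20 SD units) but stood at -0.212 and -0.141 in the other 2. Markers of other cells differed as well: in B6-Chr9MSM male 1 the Kupffer cell list (2.44) and the stellate list (3.34) were the highest of 60 and the lymphocyte list (-1.31) the lowest, while the hepatocyte list was low too (-0.620, rank 4 of 60 from the lowest). In that male the cholangiocyte list (1.32) was also the highest and the adipocyte list, of only 2 probe sets, ranked 59 from the lowest (2.22), while the neutrophil (-1.97), erythroid (-1.63) and muscle (-2.08) lists were the lowest. In B6-Chr7MSM male 2 the stellate (1.12), endothelial (0.818), cholangiocyte (1.09) and adipocyte (1.54) lists all ranked 58 of 60 from the lowest, and the hepatocyte list stood at 0.318. In B6-Chr17MSM male 1 the adipocyte list ranked 5 (-1.11), the Kupffer cell list 11 (-0.600), the erythroid list 57 (0.729) and the hepatocyte list 36 (0.104). The cholangiocyte (rank 56, 0.810), pancreas (54, 0.914), lymphocyte (52, 0.455) and muscle (51, 0.754) lists were high there. The cholangiocyte list was thus high in all 3 males, whichever way the members went. Over the 60 males, which share strains and arrays, the members' mean correlated with the adipocyte list at r = 0.588, the Kupffer cell list at 0.465, the stellate list at 0.394, the pancreas list at -0.355, the muscle list at -0.467 and the hepatocyte list at -0.202. Without the 3 males these were 0.445, 0.401, 0.162, -0.169, -0.346 and -0.222. For the cholangiocyte list r was 0.289 with all males and 0.259 without the 3, and for the lymphocyte list -0.274 and -0.0357. The part of these cell types and of RNA quality in the members' shift was not tested.

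Across the fixed lists of related genes, MSM against B6 gave calls at shares near or under the background of 23.4%. Of the translation factor probe sets 1 was higher and 3 lower among 28, with Eef1d at 0.0611 and Eif3h and Eif3e, subunits of initiation factor 3, at -0.239 and -0.119. Of the ribosome biogenesis probe sets 5 were higher and 2 lower among 45, among them Ubtf (0.0467) and Polr1a (0.133), which act in rRNA transcription. Of the regulators of ribosomal protein translation 4 were higher and none lower among 21, with Eif4ebp2, a repressor of translation initiation, at 5.32 ± 1.55 (limma adjusted p = 0.012). Mitochondrial ribosomal proteins had 13 higher and 13 lower calls among 126, with Mrpl50 at -1.91 and Mrps36 at 0.593. Beside the MSM calls, 4 of 14 Kupffer cell probe sets were lower (9.95% of all were) and none higher, among them Csf1r, Clec4f and Vsig4. Calls were not limited to that list. Higher were 2 of 4 cholangiocyte, 1 of 2 neutrophil and 1 of 9 endothelial probe sets. Lower were 1 of 3 erythroid, 1 of 2 adipocyte, 1 of 7 stellate and 1 of 9 endothelial probe sets. The lymphocyte, pancreas and muscle lists had no call. The summed log2 level of all 15 Kupffer cell probe sets, the untested one included, was 128.77 to 128.78 in the MSM males and 128.90 to 128.91 in the B6 males. Of 21 hepatocyte probe sets 1 was lower and none higher. The part of these markers in the members' differences was not tested.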

How the data were processed

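The deposited table held log2 values of 45037 probe sets on 120 arrays. Per the labels' protocols, liver kept in RNAlater was extracted with RNeasy, and total RNA was labelled with a 3' IVT Express kit. The step by which the authors made the log2 values is not given in the sources used here; their deviations between arrays are very small. Gene symbols came from the platform annotation: 34945 probe sets had 1 symbol, 932 several and 9160 none, and 34741 of the former matched RefSeq by gene ID.

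Arrays with the same strain and animal number were read as 1 male, which the labels do not spell out, and were averaged. Probe sets above the median of all values in at least 2 of 60 males were fitted with 1 mean per strain in limma 3.58.1 under R 4.3.3 (30 residual degrees of freedom), with Benjamini-Hochberg adjustment within each contrast. The scripts were tested on simulated data. Named members were the parental calls without overlap with the largest moderated t, the members called on their own chromosome by both references, the members called elsewhere, those with the largest F, and the paralogs whatever their values. Other scalings, filters, probe set classes, priors and references, a random block for the male and each male left out in turn were tried as alternatives. The members and lists were chosen with earlier results of these data known.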

Additional observations from a re-analysis of the deposited data

Results flagged for a closer look

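For 8 called probe sets, the MSM difference and that of the strain with the gene's own MSM chromosome differed when the strains were set against each other in limma (adjusted p under 0.05). For Rpl7 the value of MSM minus B6-Chr1MSM, in thousandths of a log2 unit, was -0.150, -0.325 and -0.0615 by its 3 probe sets. For Rps24 that of MSM minus B6-Chr14MSM was -0.649 and -1.35. For Rpl22 that of MSM minus B6-Chr4MSM was -0.452. For Rpsa that of MSM minus B6-Chr9MSM was 0.116, and for Rps28 that of MSM minus B6-Chr17MSM was 0.0282. The centromeric and telomeric strains of chromosome 13 differed by 0.322 for Rps26 and 0.920 for Rpl41, genes of chromosome 10, and the difference itself passed the same test.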

How the results depend on the processing

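Scaling mattered most. Quantile normalization gave 29 calls in MSM (25 higher, 4 lower), 10 calls away from the substituted chromosome and 28 strain effects, and centring arrays on their median gave 76 (74 higher, 2 lower), 106 and 76, with 2 calls on the substituted chromosome against the strains without it. Signs turned under quantile normalization for Rps6 (0.468), Rpl22 (3.54), Rpl7 1426163_x_at (1.52) and Rpl41 1422623_x_at (-0.641 in MSM and -0.102 in B6-Chr13CMSM). They turned under centring for Rpl7 (0.303, 0.483 and 0.631), Rpl22 (0.160) and Rps24 1436064_x_at (0.0661). The cause was not tested. With no filter, calls on the substituted chromosome against the strains without it were 12. The 75th percentile filter and the trended, robust prior each gave 5 higher MSM calls. With 1 probe set per gene, MSM had 9 calls (5 higher, 4 lower), and without _s_at and _x_at probe sets 6 (3 and 3). With the male as a random block there were 6 calls on the substituted chromosome, 10 elsewhere, 11 against the strains without the chromosome and 25 strain effects. The parental arrays alone gave 10 calls, 2 of them higher. The 28 consomic strains as reference gave 35, with 28 lower. The strains without the chromosome as reference gave 6 calls elsewhere. Without the 3 males that stand apart, an alternative added after seeing the data, 13 MSM calls were lower.

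Leaving out each male in turn gave 8 to 9 MSM calls, 2 to 4 higher and 5 to 6 lower. Calls on the substituted chromosome ran from 1 (without B6 male 1 or B6-Chr4MSM male 1) to 5, and against the strains without it from 6 to 10. Calls elsewhere ran from 0 (without B6 male 1) to 30 (without B6-Chr9MSM male 2, which leaves male 1 alone and assumes that it varies like the other strains). Strain effects ran from 4 (without either MSM male) to 18 (without B6-Chr9MSM male 2), and calls of centromeric against telomeric strains stayed at 0. No paired analysis was possible because animal numbers only name the males of a strain and pair none across strains. With 2 males per strain, a probe set not called may still differ.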
